A study of Mus musculus with 42 samples.

Results

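The 10 genes described here are C1qa, C1qb, C1qc, Csf1r, Cx3cr1, Cd68, Mrc1, Adgre1, Cd74 and Lyz2, a list of genes used to recognise macrophages, taken by symbol from the 44674 genes of the count table. Each of the 10 was found in the table and passed the filter on low counts, which kept 21168 genes. They were followed in the main olfactory epithelium, the sheet of tissue in the nose that holds the olfactory sensory neurons. Adult male C57BL/6NCrl mice, 8 to 12 weeks old, were exposed for 1 h to no odour (No Odour, 5 pools) or to the odour of a normal chow diet (NCD, 6 pools), a bacon-flavoured diet (Bacon, 5 pools) or a lard-based high-fat diet (HFD, 5 pools). Each pool combined 4 epithelia. The study compared which cells respond to these food odours by pS6-ribotrap, in which an antibody against phosphorylated ribosomal protein S6 pulls down ribosomes, with their messenger RNA, from cells whose S6 is phosphorylated. From every one of the 21 pools came a pulldown library (Ribo) and a library of the tissue before the pulldown (Input), 42 libraries in all. The mice were of 1 inbred strain, the labels name no allele or transgene, and a pool averages its 4 animals.

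Macrophages of the olfactory epithelium clear dying neurons, since olfactory sensory neurons are replaced throughout life. C1qa, C1qb and C1qc encode the 3 chains of C1q, which starts the classical complement pathway and marks dying cells and debris for uptake. Csf1r is the receptor for the growth factor that macrophages need to survive, and Cx3cr1 is the receptor for a chemokine made by neurons. Cd68 is a glycoprotein of lysosomes, Mrc1 a receptor for mannose-bearing ligands, and Adgre1 encodes the F4/80 antigen. Cd74, the invariant chain, guides MHC class II molecules and is also made by B cells and dendritic cells. Lyz2, a lysozyme that digests bacterial walls, is also made by neutrophils and monocytes. S6 is phosphorylated in many cell types, so that the pulldown is not restricted to neurons.

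The promoters of 3 members are shown because these members had high (Cd68, C1qb) and low (Lyz2) pulldown-to-input ratios, given further on, while each fell in Ribo with odour. Sequences are from the RefSeq promoter table (build GRCm38.p6, bases upstream of the annotated start and outside the GENCODE M21 gene), written 5′ to 3′ on the strand of the gene. Cd68 is at chr11:69666171-69666420 (minus strand), C1qb at chr4:136886201-136886450 (minus strand) and Lyz2 at chr10:117282322-117282522 (minus strand). Capitals mark GAGGAA or AGGAAGT on either strand, 2 spellings of the core bound by ETS factors such as PU.1, the product of Spi1. The 2 spellings can overlap, since they share the letters AGGAA. The window of Cd68 and that of C1qb hold 250 bases, and that of Lyz2 holds 201.
Cd68: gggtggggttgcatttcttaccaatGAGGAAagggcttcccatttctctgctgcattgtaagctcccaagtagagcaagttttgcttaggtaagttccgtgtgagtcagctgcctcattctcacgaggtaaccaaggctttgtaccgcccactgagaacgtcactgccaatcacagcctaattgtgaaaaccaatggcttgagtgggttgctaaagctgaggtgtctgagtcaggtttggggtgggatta
C1qb: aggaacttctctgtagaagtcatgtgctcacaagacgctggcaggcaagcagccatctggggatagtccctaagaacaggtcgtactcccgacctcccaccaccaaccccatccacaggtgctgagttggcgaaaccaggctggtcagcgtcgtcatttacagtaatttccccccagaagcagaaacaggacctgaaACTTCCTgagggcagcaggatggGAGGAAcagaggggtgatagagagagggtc
Lyz2: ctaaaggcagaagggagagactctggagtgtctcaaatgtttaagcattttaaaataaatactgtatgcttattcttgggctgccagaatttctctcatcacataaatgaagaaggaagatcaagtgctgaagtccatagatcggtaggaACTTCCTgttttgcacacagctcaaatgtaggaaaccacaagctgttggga

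Of the 6 members matched in that table and read here (C1qb, C1qc, Cx3cr1, Cd68, Mrc1 and Lyz2), 5 held at least 1 of these letter strings within 250 bases upstream of the start, and Cx3cr1 held none. Unlike the printed sequences, this count read all 250 bases, also where they lie inside the GENCODE gene. Outside it lie 0 of these bases for Cx3cr1, 99 for C1qc, 201 for Lyz2 and 228 for Mrc1. Among all 32851 promoters of the table, 27.3% held either string, 23.2% the first and 7.69% the second. The strings were chosen after the promoters had been read, and a match shows letters, not a bound factor. C1qa and Adgre1 are named only, and the promoters of Csf1r and Cd74 were not read here and are outside the count. The 3 C1q genes are neighbours on chromosome 4 (GRCm38), all on the minus strand, with C1qb at 136880129 to 136886187, C1qc at 136889804 to 136893065 and C1qa at 136895917 to 136898803. Cd68 is on chromosome 11, Lyz2 on chromosome 10, Mrc1 on chromosome 2, Cx3cr1 on chromosome 9, Adgre1 on chromosome 17, and Csf1r and Cd74 on chromosome 18.

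Total counts were 24839555 to 36781553 per Input library and 25392812 to 36738330 per Ribo library. The share of counts assigned to ribosomal RNA-like genes was higher in No Odour, at 28.1% ± 4.21 (SD, n = 5) in Input No Odour against 11.8% ± 1.62 (n = 5) in Bacon, 15.6% ± 4.66 (n = 5) in HFD and 15.8% ± 2.45 (n = 6) in NCD. In Ribo it was 23.9% ± 5.97 in No Odour against 13.4% to 14.7% as the means of the other groups. Bacon replicate 1 stood apart in the pulldown, where the SD over genes of its log2 ratio of Ribo to Input was 0.601, against 0.742 to 1.08 in the other 20 pools. No Odour replicate 4 stood apart in Input for several members. Nothing in the labels says how the pools were spread over days or litters, so the p-values measure the spread between these pools.

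The highest Input levels per kilobase of exon belonged to Lyz2 and Cd74. Over the 21 Input libraries, Lyz2 had 124.5 ± 15.9 CPM per kb (counts scaled to library size by TMM, per kilobase of exon, mean ± SD) and Cd74 had 83.5 ± 15.6. C1qb followed at 9.94 ± 2.60, then Cd68 at 4.62 ± 0.805 and C1qc at 4.61 ± 1.12, which did not differ beyond their spread. C1qa had 3.02 ± 1.30 and Csf1r 2.79 ± 0.246, again within their spread of each other. At the low end, Mrc1 (0.984 ± 0.127), Cx3cr1 (0.847 ± 0.162) and Adgre1 (0.770 ± 0.130) overlapped. C1qb was thus above C1qc and C1qa, although the 3 chains join in equal numbers in the protein. Salmon shares reads between similar genes, and 32.8% of the 31-base words of Lyz2 also occur in Lyz1, so its level carries that uncertainty. For Csf1r the share was 14.9%, nearly all with its neighbour Hmgxb3. It was 3.28% for Cx3cr1, 1.41% for Cd74 and 0% for the other 6.

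In the pulldown libraries the 10 genes were lower after odour than without it. In the fit of the 21 Ribo libraries, added after the data were seen, which compared the mean of the 3 odours with No Odour (edgeR quasi-likelihood test, Benjamini-Hochberg adjustment over all genes, called at an adjusted p under 0.001), 10 of 10 members fell, where 3.46% of all genes tested did. Their median log2 difference was -0.76, against 0.01 over all genes. For 9 members, all but Mrc1, each of the 5 No Odour pools was above each of the 16 pools with odour, a separation in that direction shown by 1.96% of all genes. The summed level of the 10 was 396 to 523 CPM in the No Odour pools and 257 to 306 CPM in the pools with odour. Most of that sum came from Cd74 and Lyz2, which other cells also make, with mean Ribo levels of 170.5 and 150.9 CPM without odour. From Ribo levels alone, fewer macrophages, less RNA per macrophage and fewer of their ribosomes pulled down cannot be told apart. The cause was not tested.

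**Figure D1:**
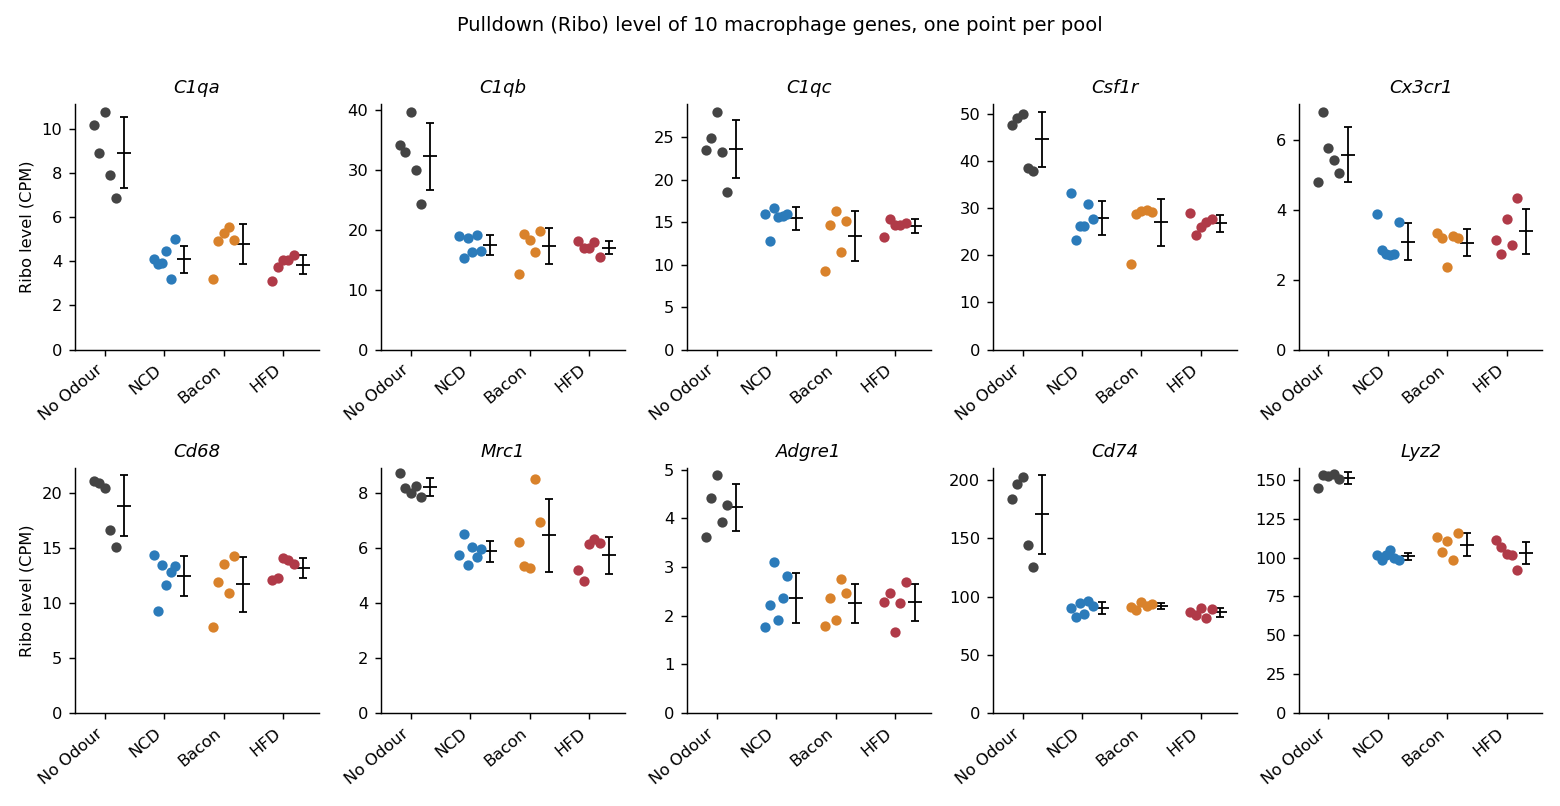
Ribo level in CPM (y axis, from 0) of each member in the 21 pools, grouped by odour (x axis). Points are pools, and the bar beside them is the mean ± SD. The No Odour points lie above the points of the 3 odours in every panel but that of Mrc1, where Bacon replicate 4 reaches 8.49 CPM.

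C1qa, of the complement genes, had the largest fitted difference of the 10. C1qa was at 10.2, 8.90, 10.8, 7.91 and 6.86 CPM in No Odour replicates 1, 2, 3, 4 and 6, and at 3.13 to 5.54 CPM (median 4.08) in the 16 pools with odour. The groups did not overlap, and C1qa fell by 1.07 on the log2 scale (SE 0.112, adjusted p = 1.85e-07), to a fitted 0.475 of its level without odour. C1qb was at 34.2, 33.04, 39.6, 30.0 and 24.3 CPM without odour and at 12.6 to 19.8 CPM (median 17.4) with odour. Its difference was -0.90 (SE 0.0871, adjusted p = 6.16e-08). C1qc was at 23.5, 24.8, 28.0, 23.2 and 18.5 CPM without odour and at 9.26 to 16.7 CPM (median 15.0) with odour, a difference of -0.71 (SE 0.0909, adjusted p = 3.62e-06). In each C1q gene, No Odour replicate 6 was the lowest of its group and still above the highest pool with odour.

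Among the receptors, Csf1r was at 47.5, 49.1, 49.9, 38.5 and 37.8 CPM in the No Odour pools and at 18.2 to 33.1 CPM (median 27.8) in the others. It fell by 0.71 (SE 0.0909, adjusted p = 4.94e-06). Cx3cr1, a weakly detected gene, was at 4.81, 6.82, 5.79, 5.43 and 5.05 CPM without odour and at 2.38 to 4.35 CPM (median 3.15) with odour. Its gap between the groups was narrow relative to the spread within them, and the difference was -0.80 (SE 0.114, adjusted p = 1.31e-05). Adgre1 was at 3.61, 4.43, 4.88, 3.94 and 4.27 CPM without odour and at 1.67 to 3.11 CPM (median 2.32) with odour, a difference of -0.87 (SE 0.128, adjusted p = 1.88e-05). Mrc1 showed the smallest difference of the 10. Its No Odour pools lay close together at 8.73, 8.19, 7.997, 8.25 and 7.86 CPM, the 16 others spanned 4.81 to 8.49 CPM (median 5.99), and 15 of them were below the lowest No Odour pool. Its difference of -0.44 (SE 0.0923, adjusted p = 9.00e-04) was close to the threshold, and the call was lost in 15 of the 21 fits that left out 1 pool, those without each No Odour pool among them (adjusted p up to 0.00497).

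Cd68 was at 21.1, 20.9, 20.5, 16.6 and 15.1 CPM without odour and at 7.84 to 14.4 CPM (median 13.1) with odour. The highest pool with odour came close to the lowest without it. The difference was -0.59 (SE 0.103, adjusted p = 1.47e-04), and the call was lost without No Odour replicate 1, 2 or 3 (adjusted p up to 0.00126). Lyz2 had the smallest standard error of the 10. It was at 144, 153, 152, 154 and 151 CPM without odour and at 92.2 to 116 CPM (median 102) with odour, a difference of -0.53 (SE 0.0390, adjusted p = 3.37e-10). Cd74 varied more without odour, at 184, 196, 203, 144 and 125 CPM, but was tightly grouped with odour, at 81.6 to 95.9 CPM (median 90.3). It fell by 0.93 (SE 0.0712, adjusted p = 1.28e-09).

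Each odour was also set against the same 5 No Odour pools in Ribo. NCD had 8 members called lower (1.6% of all genes), Bacon 9 (1.66%) and HFD 7 (1.66%), with median log2 differences of -0.76, -0.83 and -0.72. Mrc1 and Cd68 were not called with NCD (adjusted p = 0.0032 and 0.00163), Mrc1 was not called with Bacon (0.052), and Cx3cr1, Cd68 and Mrc1 were not called with HFD (0.00113, 0.00745 and 0.00267). These 3 comparisons share their control pools and are not independent of each other. Between odours, edgeR called 0 of 10 members in Ribo for HFD against Bacon (0.274% of all genes called in either direction), HFD against NCD (0.25%) and Bacon against NCD (0.189%). At an unadjusted p under 0.05 the counts were 1, 0 and 1, from C1qa (HFD against Bacon, -0.31, SE 0.150) and Lyz2 (Bacon against NCD, 0.12, SE 0.0475). Of the 21168 genes tested, 2522, 2259 and 1681 had such a p. DESeq2 with the same design also called 0 of 10 for each pair, with adjusted p of at least 0.331.

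The ribosomal RNA share moved with these differences. Adding that share to the fit, a setting chosen for Ribo after the data were seen, left 2 of 10 members called in Ribo instead of 10, while all genes called dropped from 1613 to 117 higher and 47 lower. Cd74 (-0.66, SE 0.0943, adjusted p = 9.49e-05) and Lyz2 (-0.59, SE 0.0574, adjusted p = 3.22e-07) were the 2. The other 8 kept negative values, from -0.77 for Adgre1 to -0.35 for Cd68, with adjusted p of 0.00198 to 0.199. In 2 No Odour pools the Ribo share lay inside the range of the pools with odour (10.7% to 21.7%), at 21.2% in replicate 4 and 14.6% in replicate 6. Only NCD replicate 6, at 21.7%, exceeded the first of these, and HFD replicate 6 came next at 18.2%. In both No Odour pools 9 of the 10 members were above their highest value with odour. The Input shares of these 2 No Odour pools were 31.6% and 21.7%, against 9.76% to 21.9% in the pools with odour. The share differed between the odour groups and cannot be told apart from odour in these pools. Its part in the lower levels was not tested. With the share not in the fit, the members called in Ribo were 10 without Bacon replicate 1 and 9 without No Odour replicate 4.

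The pulldown-to-input ratio compares each Ribo library with the Input of its own pool and shows how far a gene's RNA was enriched or depleted in the pulldown. Without odour, 6 of 10 members were higher in Ribo than in Input, where 19.8% of all genes were called higher and 16% lower. Cd68 had the highest ratio, with log2 values of 1.65, 2.00, 1.76, 1.04 and 1.24 in the 5 pools and a fitted mean of 1.54 (SE 0.115, adjusted p = 4.21e-11). Csf1r followed at 1.32 (SE 0.0905, adjusted p = 1.33e-11), with pools at 1.38, 1.45, 1.53, 1.03 and 1.19. C1qb (1.18), C1qc (1.07), C1qa (0.90) and Adgre1 (0.69) were also called, with adjusted p between 1.87e-09 and 1.71e-04. The call of C1qa was lost without No Odour replicate 1 or 3 (adjusted p up to 0.0026) and that of Adgre1 without No Odour replicate 6 (0.00166). Mrc1 (0.35, adjusted p = 0.0078) and Cx3cr1 (0.27, adjusted p = 0.0593) were not called. Neither were Cd74 (-0.04, SE 0.0841, adjusted p = 0.729) and Lyz2 (-0.20, SE 0.0784, adjusted p = 0.0278), the 2 members with the highest levels per kilobase. The ratio thus differed among genes of the same list, from a fitted 2.91 for Cd68 to 0.868 for Lyz2.

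**Figure D2:**
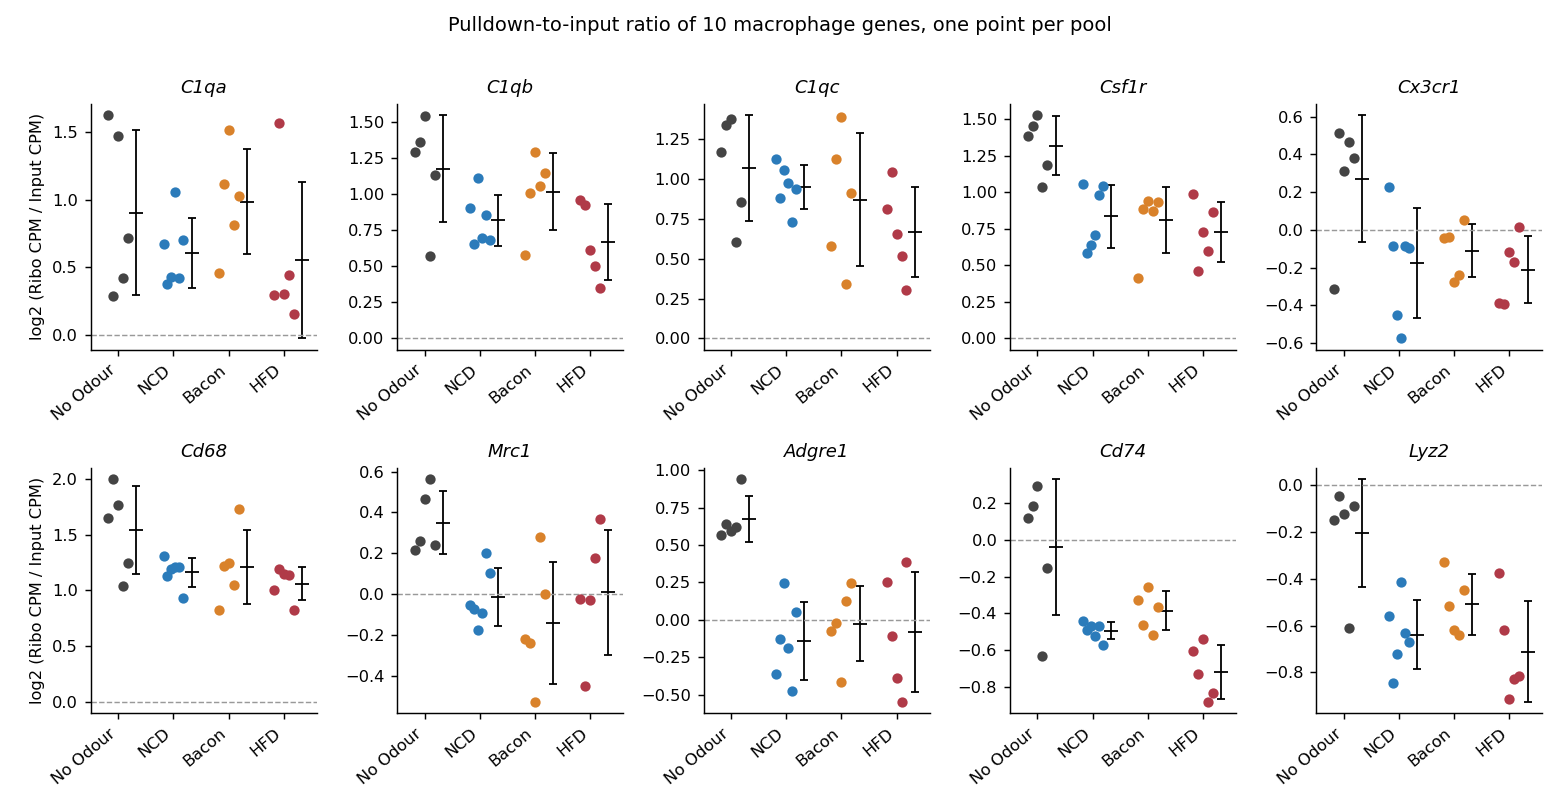
log2 ratio of Ribo CPM to Input CPM (y axis) of each member in the 21 pools by odour (x axis), with the mean ± SD beside the points and a dashed line at 0. Cd68, Csf1r and the 3 C1q genes are above 0 in each of the 21 pools, Lyz2 is below 0 in each, and only Adgre1 has all its No Odour points above all others.

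Within each odour Cd68 again had the highest fitted ratio of the 10 and Cd74 and Lyz2 the lowest, while the order of Csf1r and the C1q genes changed. With NCD 4 members were called higher in Ribo than in Input (24.4% of all genes), with Bacon 5 (22.5%) and with HFD 4 (22.7%). Cd68 (1.17, 1.22 and 1.07 in that order), Csf1r (0.84, 0.81 and 0.73), C1qb (0.82, 1.02 and 0.67) and C1qc (0.96, 0.87 and 0.67) were called in each, and C1qa with Bacon alone (1.00, against 0.62 with adjusted p = 0.0034 in NCD and 0.53 with adjusted p = 0.0202 in HFD). Cd74 and Lyz2 were called lower in Ribo than in Input in each odour, among 21.6%, 18.8% and 20% of all genes. Cd74 was at -0.49, -0.39 and -0.72, and Lyz2 at -0.64, -0.51 and -0.71. Adgre1, called higher without odour, had values of -0.15, -0.03 and -0.09 within the odours, none called.

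Set against No Odour, the ratio was below 0 in its difference for 10 members with NCD, 9 with Bacon and 10 with HFD, but few single differences passed. The median differences were -0.40 for NCD, -0.34 for Bacon and -0.50 for HFD, against 0.00, 0.00 and -0.01 over all genes. The number called was 0 for NCD (0.165% of all genes called lower), 0 for Bacon (1.32%) and 1 for HFD (0.52%). The 1 was Cd74, whose log2 ratio with HFD was -0.60, -0.73, -0.54, -0.88 and -0.83 against 0.12, 0.18, 0.30, -0.63 and -0.15 without odour. Its difference was -0.68 (SE 0.119, adjusted p = 5.90e-04), and No Odour replicate 4 overlapped the HFD pools. The call was lost without any 1 of the 5 HFD pools and without No Odour replicate 1, 2 or 3 (adjusted p up to 0.00356). At an unadjusted p under 0.05 the counts were 8, 6 and 9, where 5905, 7114 and 6273 of the 21168 genes tested had such a p in either direction. DESeq2 with the same design called 0, 0 and 3, where it called 236, 679 and 416 of all genes lower, against 35, 279 and 110 in edgeR. DESeq2 on pulldown divided by input called 2, 0 and 3, where it called 341, 806 and 515 of all genes lower.

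With the mean of the 3 odours, a contrast added after the data were seen, 10 of 10 members had a negative ratio difference and 2 were called (2.37% of all genes lower). They were Csf1r (-0.53, SE 0.103, adjusted p = 5.74e-04) and Cd74 (-0.50, SE 0.0965, adjusted p = 5.56e-04). Adgre1 had the largest difference, -0.77 (SE 0.161), and missed the threshold with an adjusted p of 0.00105. It was the only member whose 5 No Odour ratios, 0.57, 0.64, 0.59, 0.62 and 0.94, all exceeded the 16 others, which ran from -0.55 to 0.39; 1.69% of all genes were separated in that direction. Lyz2 (-0.42, adjusted p = 0.00137) also lay close to the threshold. Leaving out 1 pool moved the count between 0 and 4, with 0 without No Odour replicate 1, 2 or 3 or HFD replicate 5 and 4 without Bacon replicate 1. Ratios between odours gave 0 calls in edgeR and in DESeq2 for each pair, among 0.0378% (HFD against Bacon), 0.0236% (HFD against NCD) and 0.00945% (Bacon against NCD) of all genes. At an unadjusted p under 0.05 there were 2, 0 and 0 members, and 1693, 979 and 1533 of the 21168 genes tested.

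In Input, the tissue before the pulldown, the differences were negative for 10 of 10 members and smaller in median size. The median log2 difference of any odour against none was -0.30, against -0.01 over all genes, and 3 of 10 members fell (6.4% of all genes). C1qa was at 3.25, 7.28, 3.83, 5.89 and 4.15 CPM without odour and at 1.21 to 3.83 CPM (median 2.54) with odour. Its difference was -0.91 (SE 0.180, adjusted p = 5.13e-04), although the groups overlapped, and the call was lost without No Odour replicate 2 (-0.73, adjusted p = 0.00416) or 4 (-0.84, 0.00336). C1qb was at 14.0, 12.9, 13.6, 20.2 and 11.1 CPM without odour and at 7.44 to 12.7 CPM (median 9.62) with odour, a difference of -0.57 (SE 0.0966, adjusted p = 1.15e-04). Cd74 was at 170, 173, 165, 223 and 139 CPM without odour and at 114 to 159 CPM (median 131) with odour, a difference of -0.42 (SE 0.0695, adjusted p = 8.58e-05). The remaining 7 ran from -0.47 for C1qc (adjusted p = 0.00179, called without Bacon replicate 4 or HFD replicate 6) to -0.06 for Mrc1 (0.639). No member had all its No Odour Input pools above the others, a pattern shown by 1.37% of all genes.

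**Figure D3:**
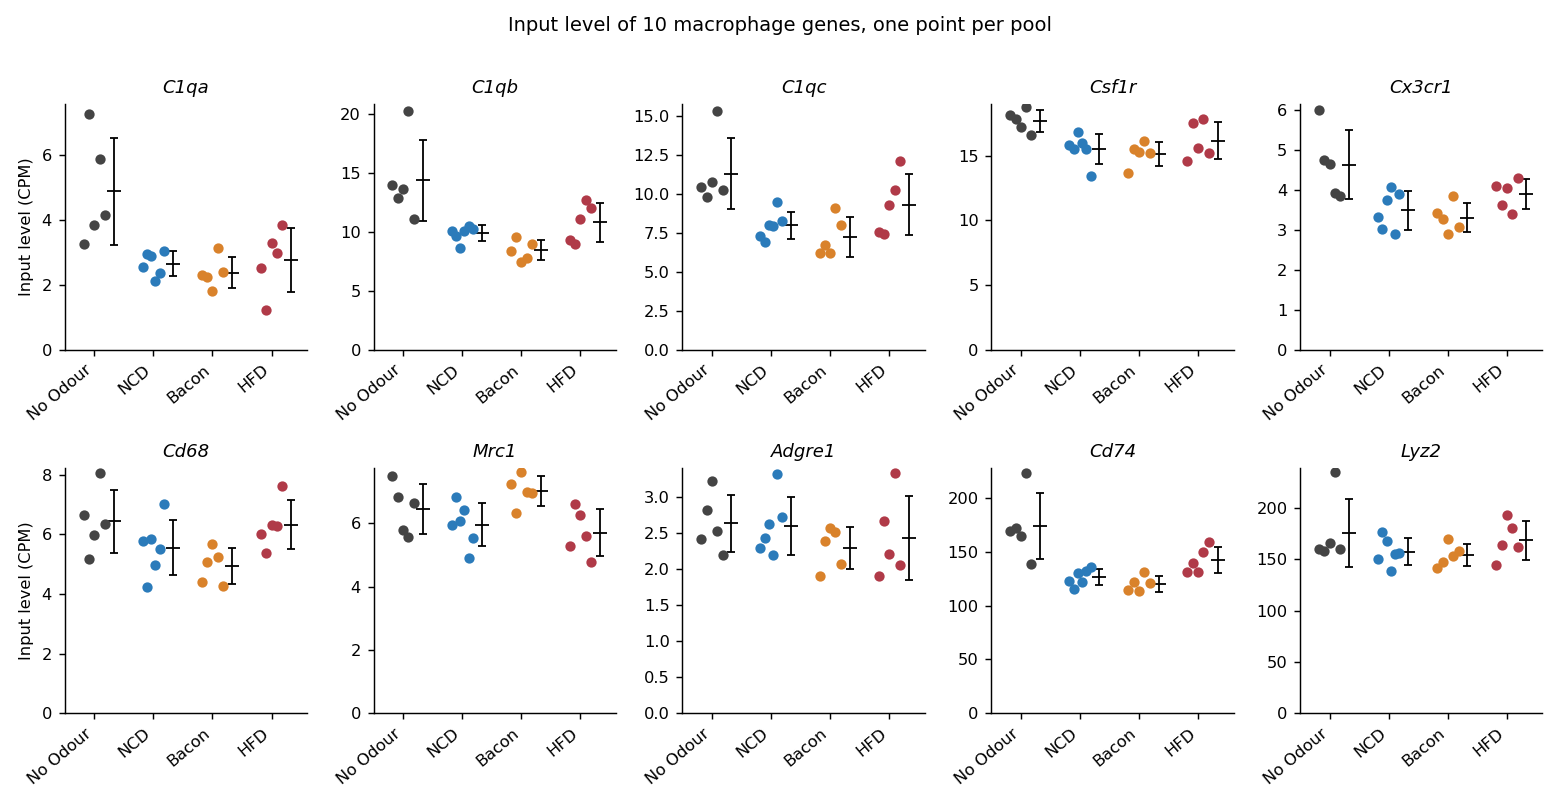
Input level in CPM (y axis, from 0) of each member in the 21 pools by odour (x axis), with the mean ± SD beside the points. The groups overlap in every panel, and No Odour replicate 4 is the highest Input point for 6 members, Lyz2 (235 CPM), Cd74 (223 CPM), C1qb (20.2 CPM), Csf1r (18.75 CPM), C1qc (15.3 CPM) and Cd68 (8.05 CPM).

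By odour, Input had 3 members called lower with Bacon (7.92% of all genes), namely C1qb (-0.77), Cd74 (-0.53) and C1qc (-0.64, adjusted p = 9.34e-04). It had 0 with NCD (0.416%) and 0 with HFD (0.317%) in edgeR. DESeq2 called 2 and 0, where it called 544 and 514 of all genes lower. At an unadjusted p under 0.05 there were 6 and 3 members, and 7363 and 7190 of the 21164 genes tested. Between odours 0 members were called by either tool. Of all genes, edgeR called 0.0803% for HFD against Bacon, 0.0567% for HFD against NCD and 0.104% for Bacon against NCD. The unadjusted p was under 0.05 for 5, 0 and 1 members in that order, and for 3861, 1378 and 4555 of the 21164 genes tested. These Input differences depended on the ribosomal RNA share and on the scaling. With that share in the fit, edgeR called 0 of 10 with any odour, where 4 of all 21164 genes were called higher and 0 lower. With scaling by total counts alone it also called 0 of 10, and the median over all genes moved to 0.25 in Input, 0.09 in Ribo and -0.17 in the ratio. Calls over all genes then split 5181 higher to 258 lower in Input, against 1069 to 1355 with TMM scaling, and 1096 to 366 in Ribo, against 880 to 733. For the ratio the split was 255 to 1585, against 657 to 501. The Ribo differences of the members were called for 9 of 10 under total counts, with Mrc1 at -0.36 (adjusted p = 0.00769).

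**Figure D4:**
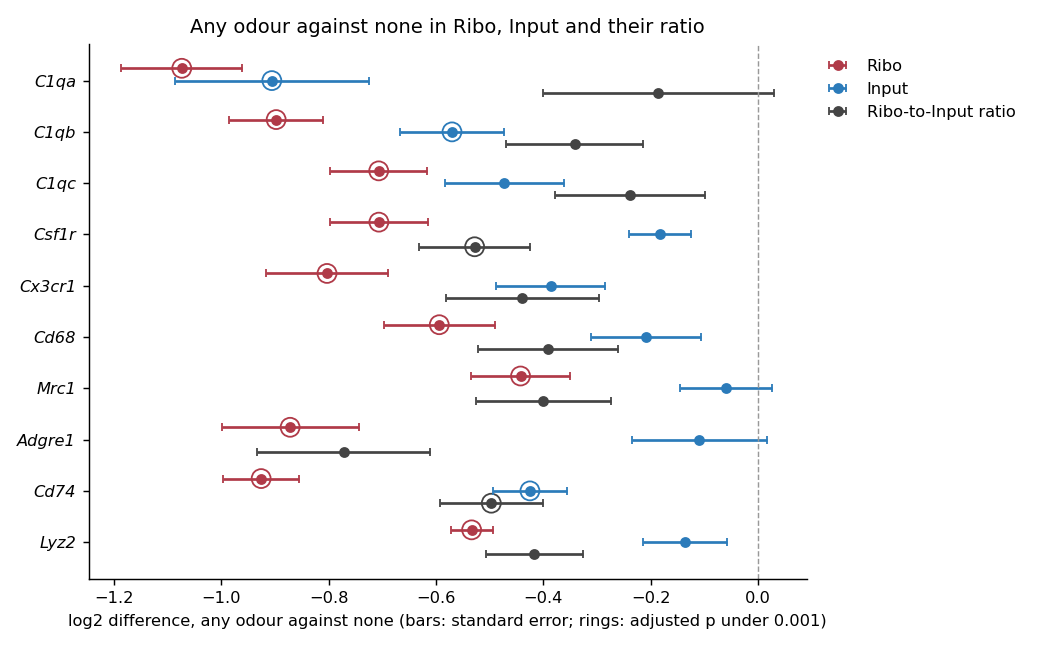
log2 difference of any odour against none (x axis) with its standard error for each member (y axis) in Ribo, in Input and in their ratio. Rings mark an adjusted p under 0.001. The 10 Ribo values lie between -1.07 and -0.44 and are all ringed, the Input values lie between -0.91 and -0.06 with 3 ringed, and the ratio values lie between -0.77 and -0.19 with 2 ringed.

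Further macrophage genes were followed by lists. With any odour, 3.46% of all genes fell and 4.16% rose in Ribo, and 6.4% fell and 5.05% rose in Input. In the ratio without odour 19.8% of all genes were called higher and 16% lower. An unadjusted p under 0.05 was found for 7627 of 21168 genes in Ribo, 9297 of 21164 in Input and 13437 of 21168 in this ratio. Of 20 genes of macrophage surface and phagocytosis, 18 passed the filter (Lyve1 and Timd4 did not), and 9 fell in Ribo with any odour, with a median of -0.58 over the 18. They were Fcgr1, Fcer1g, Tyrobp, Trem2, Itgam, Itgb2, Stab1, Aif1 and Ms4a7. Trem2, a receptor for lipids and debris, differed by -1.01 (SE 0.153, adjusted p = 2.67e-05) and Itgam by -0.82 (SE 0.0833, adjusted p = 1.15e-07). Without odour, 9 of the 18 were higher in Ribo than in Input and 1, Siglec1, was lower (-1.01). Tyrobp (2.21) and Fcer1g (1.34), signalling adaptors of macrophages and other myeloid cells, were among the higher ones, and both were also lower in Input with odour (-0.74 and -0.52). The summed Ribo level of the list was 209 to 284 CPM without odour and 109 to 180 CPM with odour. Of 4 transcription factors, Spi1 (-0.53), Irf8 (-0.74) and Irf5 (-0.56) fell in Ribo. In Input edgeR called 0 of the 4 (2 at an unadjusted p under 0.05).

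Genes of antigen presentation, lysosomes and complement gave mixed counts. Over all genes, 3.46% fell in Ribo and 6.4% in Input with any odour. In the ratio without odour 19.8% were higher and 16% lower. Among 6 MHC class II genes, H2-Aa (-0.90), H2-Ab1 (-0.94) and H2-Eb1 (-0.89) fell in Ribo, values close to that of Cd74, whose product binds theirs. In Input H2-Aa (-0.48), H2-Ab1 (-0.33), H2-Eb1 (-0.47) and H2-DMb1 (-0.75) fell. Of 10 lysosomal genes 6 fell in Ribo, among them Ctss (-0.70) and Npc2 (-0.47), while Lamp1 (adjusted p = 0.980) and Ctsl (0.966) were not called. Npc2 (-0.60) also fell in Input. Of 8 complement partners, the receptors C3ar1 (-0.80) and C5ar1 (-0.84) and the C1 inhibitor Serping1 (-0.63) fell in Ribo, and C3ar1 also in Input (-0.58). C1ra and C1s1, proteases that bind C1q, were at -0.56 (adjusted p = 0.00899) and -0.52 (0.0531). The ligands of the members were not called in Ribo (1 of 3 at an unadjusted p under 0.05), with Csf1 at -0.17, Il34 at -0.55 (adjusted p = 0.049) and Cx3cl1 at -0.16. Without odour, Spi1 (1.70), Irf5 (1.01), C5ar1 (1.43) and C3 (0.79) were higher in Ribo than in Input, and edgeR called 0 of the 6 MHC class II genes in this ratio (4 at an unadjusted p under 0.05), as with Cd74. Cx3cl1 was lower in Ribo than in Input without odour (-0.73), as were C1s1 (-0.78) and Serping1 (-0.81).

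**Figure D5:**
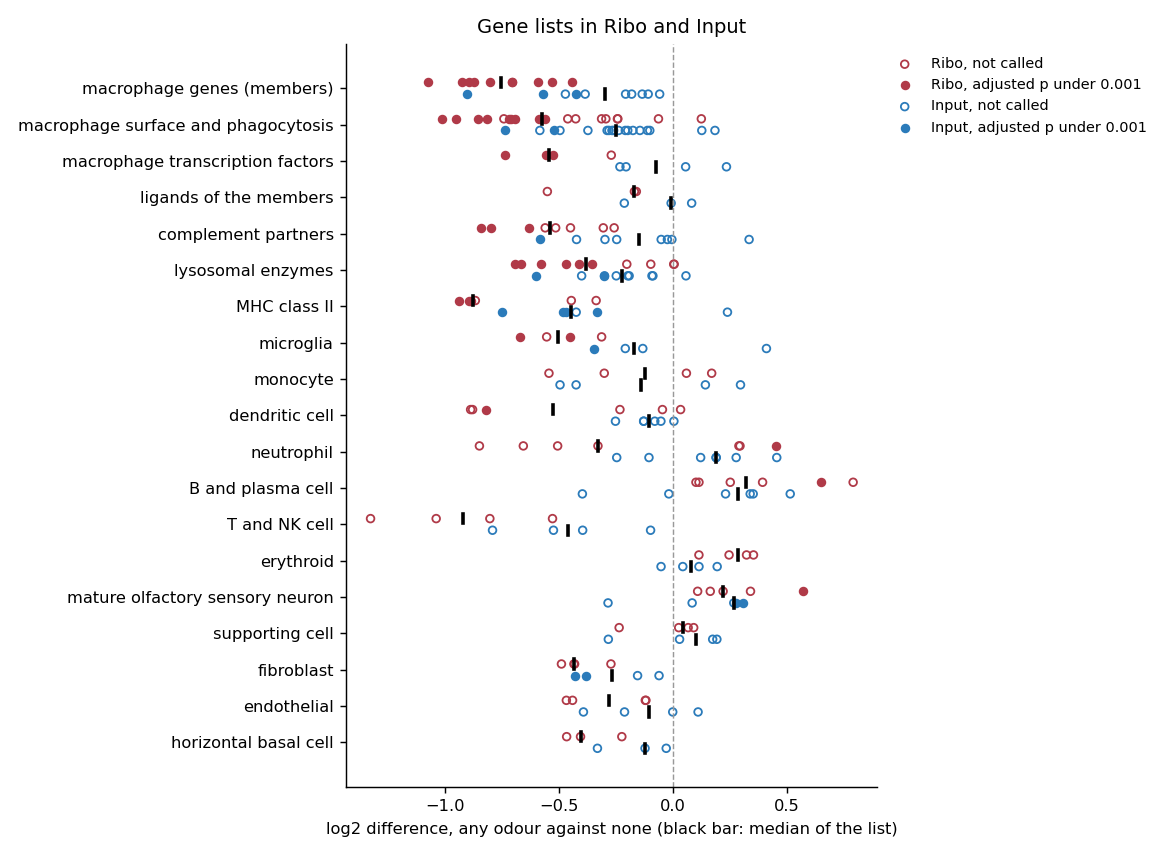
log2 difference of any odour against none (x axis) for the genes of each list (y axis) in Ribo and in Input. Points are genes, filled where the adjusted p is under 0.001, and the black bar is the median of the list. The Ribo medians are -0.76 for the 10 members, -0.58 for macrophage surface genes, -0.88 for MHC class II, 0.32 for B and plasma cells and 0.22 for mature olfactory sensory neurons.

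Markers of other cells that the tissue holds did not follow 1 pattern. With any odour, 3.46% of all genes fell and 4.16% rose in Ribo, and 6.4% fell and 5.05% rose in Input. In the ratio without odour 19.8% were higher and 16% lower. Lyz2 is shared with neutrophils, of whose 7 tested markers 0 fell in Ribo and 1, Ltf, rose (0.45). Their median was -0.33, S100a8 was at -0.51 (adjusted p = 0.00135), and their sum was 164 to 204 CPM without odour and 112 to 196 CPM with odour. Ly6g did not pass the filter. Without odour 4 of the 7 were higher in Ribo than in Input, S100a8 (2.19) and S100a9 (1.98) among them, and 1, Ltf, was lower (-0.26). Cd74 is shared with B cells, of whose 6 markers 1, Jchain, rose in Ribo (0.65) and 0 fell, with a median of 0.32 and a sum of 3.11 to 3.93 CPM without odour and 3.33 to 7.25 CPM with odour. Dendritic cell markers had 1 of 6 lower, Itgax (-0.82), which macrophages also make. Monocyte markers had 0 of 4 called (1 at an unadjusted p under 0.05) and a median of -0.12, with Ccr2 at -0.55. Microglia markers had 2 of 4 lower, Tmem119 (-0.67) and Olfml3 (-0.45). T and NK cell markers, each at or under 1.2 CPM in Ribo, had 0 of 4 called but 4 at an unadjusted p under 0.05 and a median of -0.92, and their sum was 2.59 to 3.28 CPM without odour and 0.918 to 2.33 CPM with odour.

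In the same comparison edgeR called 0 in Ribo of 4 erythroid (median 0.28), 4 supporting cell (0.05), 4 fibroblast (-0.43), 4 endothelial (-0.28) and 3 horizontal basal cell markers (-0.41), and 1 of 5 markers of mature olfactory sensory neurons rose, Stoml3 (0.57). At an unadjusted p under 0.05 the counts of those 5 uncalled lists were 3, 0, 3, 1 and 1, where 7627 of 21168 genes had such a p. The sum of those neuron markers was 14550 to 18190 CPM without odour and 16590 to 22770 CPM with odour in Ribo. In Input, 2 fibroblast markers fell, Col1a1 (-0.43) and Col3a1 (-0.38), 1 microglia marker fell, Tmem119 (-0.35), and 2 neuron markers rose, Adcy3 (0.27) and Gnal (0.31), with 0 called in the other lists of this and the preceding paragraph, where at an unadjusted p under 0.05 the count was 3 for supporting cells, 2 each for monocytes, endothelial and horizontal basal cells, 1 each for B, T and NK and erythroid cells, and 0 for neutrophils and dendritic cells. The part of other cells in the lower levels of the members was not tested. Without odour, the ratio differed between these lists, where 19.8% of all genes were called higher and 16% lower. All 4 erythroid markers were higher in Ribo than in Input (Hba-a1 2.48), as were 3 of 5 neuron markers, whereas all 4 supporting cell (Cyp2g1 -2.06), 4 fibroblast (Dcn -1.44) and 3 horizontal basal cell markers (Krt5 -2.29) were lower, and of 4 endothelial markers 1 was higher and 3 were lower.

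Across the 21 pools, the mean of the standardised Input log2 CPM of the members was most like that of Col1a2 (Pearson r = 0.946), Gpx3 (0.942), B2m (0.937), Lrrc51 (0.928) and Mrpl54 (0.926), of 16227 genes compared. For the log2 ratio the most similar genes of 16213 were H2-Ab1 (0.909), Mapkapk2 (0.892), Upf3a (0.882), H2-Eb1 (0.882) and Nasp (0.880). These values describe pools that share depth, ribosomal RNA share and odour group, and carry no test.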

How the data were processed

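The authors made libraries with a whole-transcriptome amplification kit, sequenced paired reads, ran nf-core rnaseq with Salmon (build GRCm38) and deposited the expected counts per gene. These estimated counts are not normalized by the authors, and 30.9% of them are not whole. Salmon shares reads among similar genes, and no source used here says that strand was kept, so reads of overlapping genes may not be told apart. The authors' own division of pulldown by input with DESeq2 1.26 is not part of these values. Of the 44674 genes, 44118 have a GENCODE M21 name, and the 556 without one (0.525% of counts) stayed in the tests under their identifiers.

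Counts were rounded and filtered with edgeR's filterByExpr (minimum count 10), scaled by TMM and fitted with edgeR's robust quasi-likelihood test (edgeR 4.0.16, limma 3.58.1, R 4.3.3). Ratios came from all 42 libraries with a term per pool and pulldown-by-odour terms, Input and Ribo levels from 21 libraries each. CPM values are scaled by TMM, and log2 ratios of pools use a prior count of 2. All p-values are two-sided. An adjusted p under 0.001 was called, as in the study. Input kept 21164 genes. The ribosomal RNA share is that of 314 genes annotated as ribosomal RNA or named as resembling its repeat. In simulated counts with known changes, the ratio fit for NCD recovered 93 of 100 genes changed 2-fold and 100 of 100 changed 4-fold, with 0 wrong calls among 21168 genes. The Input fit for NCD made 1 wrong call among 21164 genes. The unchanged genes had the same mean in every odour group, and the changed genes were above a minimum level. A group difference in ribosomal RNA share was not simulated, so wrong calls arising from 1 are not measured.

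Pulldown and input of a pool come from the same tissue, although their deviations from group means had a median correlation of only 0.014 over 21 pools. Libraries of a group differed from each other by more than sampling noise in each of 90 pairs, where chi-square divided by its degrees of freedom was at least 3.33. Total counts were 24839555 to 36781553 per library. Low counts limit the precision for weakly detected members.

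The members and the further gene lists were chosen with earlier results of these data known. Genes named were the members, from each list the 3 of smallest p in the ratio without odour and in Input, the 5 most similar genes by each measure, and others named after their values were seen. Some genes of these lists are not reported here by name. Alternatives were DESeq2's size factors, total counts, DESeq2 1.42.0 (same model, or counts of the pulldown over those of the input), no filter, the compared groups only, pulldown libraries only, no pool term, replicate number as a block, the ribosomal RNA share, an adjusted p under 0.05 and leaving out each pool. Ribo level comparisons, the ratio of any odour against none and ratios within each odour were added after the data were seen.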

Additional observations from a re-analysis of the deposited data

Results flagged for a closer look

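In 120 groups of 5 or 6 pools (10 members, 3 quantities, 4 odours), 11 held 1 pool far from the rest by Dixon's criterion, and chance alone gives about 1 in 20 groups. In Bacon replicate 1, C1qa was at 3.21 CPM in Ribo (median of the other pools of its group 5.11), Csf1r at 18.2 CPM in Ribo (29.4) and Csf1r at a log2 ratio of 0.41 (0.91). In No Odour replicate 4, C1qc was at 15.3 CPM in Input (10.3), Lyz2 at 235 CPM in Input (160) and Lyz2 at a log2 ratio of -0.61 (-0.11). The other values far from their group were the C1qa log2 ratio of 1.57 in HFD replicate 2 (0.30), C1qc at 12.8 CPM in Ribo of NCD replicate 2 (15.9), Cx3cr1 at 2.38 CPM in Ribo of Bacon replicate 3 (3.22), the Cx3cr1 log2 ratio of -0.31 in No Odour replicate 1 (0.43) and the Adgre1 log2 ratio of 0.94 in No Odour replicate 6 (0.61). Without Bacon replicate 1, Csf1r differed by -0.50 in the ratio of any odour against none (adjusted p = 2.63e-04, edgeR).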

How the results depend on the processing

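Counts of members called at an adjusted p under 0.001 are given by setting. A whole number in brackets after a setting counts all genes called lower. For the ratio over No Odour, NCD (0 as reported) had 4 at an adjusted p under 0.05 (6.31% of all genes lower), 1 with total counts (143), 2 with DESeq2 on pulldown divided by input (341) and 8 with pulldown libraries only (339). Bacon (0) had 5 at 0.05 (10.5%), 3 with total counts (1430) and 9 with pulldown libraries only (352). Under total counts the median Bacon difference over all genes was -0.23. HFD (1) had 6 at 0.05 (8.03%), 3 with DESeq2 (416), with DESeq2 on pulldown divided by input (515), with no filter (183) and with total counts (216), 0 with the compared groups only (5) and 7 with pulldown libraries only (352). The ratio of any odour (2) had 8 at 0.05 (12.8%), 4 with DESeq2 (959), with DESeq2 on pulldown divided by input (1166) and with total counts (1585), 1 with the ribosomal RNA share (82) and 10 with pulldown libraries only (733). In Input, any odour (3) had 6 at 0.05 (18.7%) and 0 with the ribosomal RNA share (0) or total counts (258). Bacon (3) had 7 at 0.05 (19.8%) and 0 with the compared groups only (608), the ribosomal RNA share (0) or total counts (370). NCD (0) had 6 at 0.05 (11.1%), 2 with DESeq2 (544) and 1 with no filter (119), and HFD (0) had 3 at 0.05 (9.78%). In Ribo, the ribosomal RNA share left 2 for any odour and for each odour. All genes called lower were then 47 for any odour, 29 for NCD, 45 for Bacon and 22 for HFD. No label says what a shared replicate number marks, and deviations of same-numbered pools of different odours had median correlations of 0.020 in Input (-0.153 to 0.156), 0.0092 in Ribo (-0.345 to 0.110) and 0.020 in the ratio (-0.214 to 0.112) over 27 pairs, so the numbers were not taken to pair the pools. With the replicate number as a block, Ribo gave 9 for any odour (10 without the block), 5 for NCD (8), 4 for Bacon (9) and 5 for HFD (7), and the ratio of any odour gave 1. The block also took all genes called lower in Ribo from 733 to 475 for any odour and from 339 to 183 for NCD. For Bacon they went from 352 to 197, for HFD from 352 to 158, and for the ratio of any odour from 501 to 245. The causes were not tested.

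Leaving out 1 pool gave 8 to 10 for any odour in Ribo, 6 to 9 for each odour in Ribo, 5 to 6 for the ratio without odour, 0 to 4 for the ratio of any odour, 0 to 1 for Bacon and 0 to 2 for NCD and for HFD in the ratio, 2 to 4 for any odour and for Bacon in Input, 0 to 2 for NCD in Input, and 0 for the pairs of odours and for HFD in Input. In the ratio, the counts above those reported came without No Odour replicate 4 (NCD, Bacon and HFD) or Bacon replicate 1 (HFD). For NCD in Input they came without No Odour replicate 4 or 6 or HFD replicate 2 or 6.

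Values that changed sign were not called after the change, and of them C1qa in Input was called as reported. The Cd74 ratio without odour was 0.072 with the block, 0.073 with the ribosomal RNA share and 0.035 with total counts, and ran from -0.12 to 0.10 over the fits without 1 pool, the last without No Odour replicate 4. The C1qa ratio for Bacon, 0.10 as reported, was -0.42 with the ribosomal RNA share, -0.13 with total counts, and from -0.033 (without Bacon replicate 3) to 0.28 over the fits without 1 pool. In Input of any odour, the ribosomal RNA share gave C1qa 0.12 and Cd68 0.12, total counts gave Csf1r 0.076, Cd68 0.046, Mrc1 0.19, Adgre1 0.15 and Lyz2 0.13, and Mrc1 ran from -0.12 to 0.0017 over the fits without 1 pool, the last without No Odour replicate 1. No sign change occurred in Ribo of any odour against none under the settings run. For ratios of the weakly detected Adgre1 and Cx3cr1, depth limits the precision.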
